A study of Mus musculus with 11 samples.

Results

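Dendritic epidermal T cells (DETCs) and keratinocytes (KCs) of wild-type (WT) mice were compared across genes to describe what each population transcribed in the epidermis. The comparison held 6 of the 11 libraries of the series, which were the WT libraries, 3 of KCs and 3 of DETCs. The members were taken from the labels alone, by the condition WT and the cell population, and the libraries of the 2 populations carry the same 3 label numbers, so each KC library was set against the DETC library with its number. The libraries are called KC 1 to 3 and DETC 1 to 3 below, and the labels do not state that a number marks 1 animal. The mice were female by the labels, and the study's methods describe flank skin of WT littermates of huLangerin-DTA mice, all at an age of 8 weeks. Epidermal suspensions were released with trypsin and sorted on a flow cytometer. Both gates took live single cells negative for MHC-II, langerin and c-kit, and they differed in CD45, which was absent on the KCs and present on the DETCs. No T cell receptor antibody is named in the sort, so the DETC libraries are CD45+ epidermal cells that lack those 3 markers, and the population name is that of the labels.

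Murine epidermis is a stratified epithelium of keratinocytes, which divide in the basal layer and cornify as they move outward. DETCs are resident gammadelta T cells that seed this layer in fetal life, carry an almost invariant receptor and touch keratinocytes with their dendrites. They are known for sensing keratinocyte stress through receptors such as NKG2D and JAML, and for supplying growth factors and cytokines in wound repair.

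Each library held between 13592446 and 19750440 reads on genes, with 19345 to 20849 genes detected, and mitochondrial transcripts took 1.27 to 1.74% of them. Levels are given as normalized counts, which are reads per gene divided by the size factor of the library. In the 3 KC libraries the floor of 3 reads equals 2.59 to 3.07 normalized counts, and in the 3 DETC libraries 2.48 to 3.27. Differences are DETC minus KC on the log2(normalized count + 1) scale, from limma with the label number as a block, and a gene was called at a Benjamini-Hochberg adjusted p under 0.05 over all 14419 genes tested. These are bulk samples, in which fewer cells of a type and less RNA per cell cannot be told apart. The limma p-values measure the spread of the difference across the 3 numbered pairs, adjusted with the spread of other genes, and not the spread among the 3 libraries of a population.

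To show the regulatory sequence next to genes with large differences, the bases immediately before the annotated start are printed for Prf1 and Nkg7, 2 cytotoxic genes of the DETC libraries, for Cd3e, a T cell marker, and for Krt5, the most abundant keratin of the KC libraries. They come from RefSeq on GRCm38.p6, are cut before the first base of the gene model, and read 5′ to 3′ on the strand of the gene. Capitals mark a 6-letter match to AGGAAG, a core bound by ETS factors, or TGTGGT, a core bound by RUNX factors, on either strand.
Prf1, chr10:61297713-61297832, plus strand: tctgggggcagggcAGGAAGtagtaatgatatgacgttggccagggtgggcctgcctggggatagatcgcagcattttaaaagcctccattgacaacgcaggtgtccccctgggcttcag
Nkg7, chr7:43436953-43437072, plus strand: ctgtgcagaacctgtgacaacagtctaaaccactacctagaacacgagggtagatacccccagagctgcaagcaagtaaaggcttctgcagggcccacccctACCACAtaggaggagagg
Cd3e, chr9:45009628-45009747, minus strand: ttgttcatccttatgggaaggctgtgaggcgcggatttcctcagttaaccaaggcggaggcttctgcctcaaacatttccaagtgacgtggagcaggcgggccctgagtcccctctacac
Krt5, chr15:101712906-101713025, minus strand: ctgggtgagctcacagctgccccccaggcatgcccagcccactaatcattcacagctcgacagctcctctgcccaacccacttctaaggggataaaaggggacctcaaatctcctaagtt
The Prf1 stretch holds the ETS letters and the Nkg7 stretch the RUNX letters, while neither the Cd3e nor the Krt5 stretch holds a match to either.

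Over windows of 300 bases, 250 before and 50 after each RefSeq start, 10291 of the tested genes had a promoter in the table, in 13137 windows. Genes called higher in DETCs by a log2 difference of at least 5 had 719 windows, of which 23.5% held TGTGGT and 50.3% held AGGAAG. Genes called higher in KCs by a log2 difference of -2 or lower had 1454 windows, of which 12.2% held TGTGGT and 33.1% held AGGAAG. Among all tested genes the shares were 12.7% and 33.4%, and all 32851 windows held them at 16.8% and 35.4%. The AP-1 letters TGANTCA stood in 9.04% of the DETC windows, 9.28% of the KC windows and 5.46% of those of tested genes. The median number of CpG dinucleotides per window was 6 in the DETC set, 12 in the KC set and 20 among tested genes. The 2 sets were chosen by their expression and differ in base composition, the motifs were searched separately and may share bases, and these shares are a description without a test.

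Most genes differed between the populations. Of 14419 genes tested, 10873 were called, which is 75.4%, with 5858 (40.6%) higher in DETCs and 5015 (34.8%) higher in KCs. At least 2-fold differences were called for 3486 genes higher in DETCs (24.2%) and 2981 genes higher in KCs (20.7%). The 3 and 3 libraries did not overlap for 11448 genes (79.4%), and 11102 (77%) had an unadjusted p under 0.05. The median difference was 0.07 and the median standard error 0.13. With quantile normalization the median of all genes moved by -0.32, and the calls divided into 4649 higher in DETCs and 6626 higher in KCs. More than 1 CPM (reads scaled to library size) in at least 2 libraries was reached by 11695 tested genes in both populations, by 941 in KCs alone and by 1431 in DETCs alone.

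The 2 directions had different shapes. A log2 difference of at least 5, or 32-fold, was called for 824 genes higher in DETCs and for 0 genes higher in KCs, and at a log2 difference of 4, or 16-fold, the counts were 1156 and 6. Of the tested genes, 393 had 0 reads in all 3 KC libraries, and all of these were called higher in DETCs. A tested gene needed more than 1 CPM in at least 2 of all 11 libraries. A gene without reads in KCs passed this filter through other libraries, which largely fixed the direction of its call. No tested gene had 0 reads in all 3 DETC libraries. Where the higher population had a mean of 100 or more, 754 of 4684 genes higher in DETCs had a KC level under 5% of the DETC level, while 0 of 3780 genes higher in KCs had a DETC level under 5% of the KC level. Lists of genes are described below by their counts and medians beside these values for all genes. Where members of a list had next to no reads in KCs, the filter likewise largely fixed the direction of their calls.

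**Figure D1:**
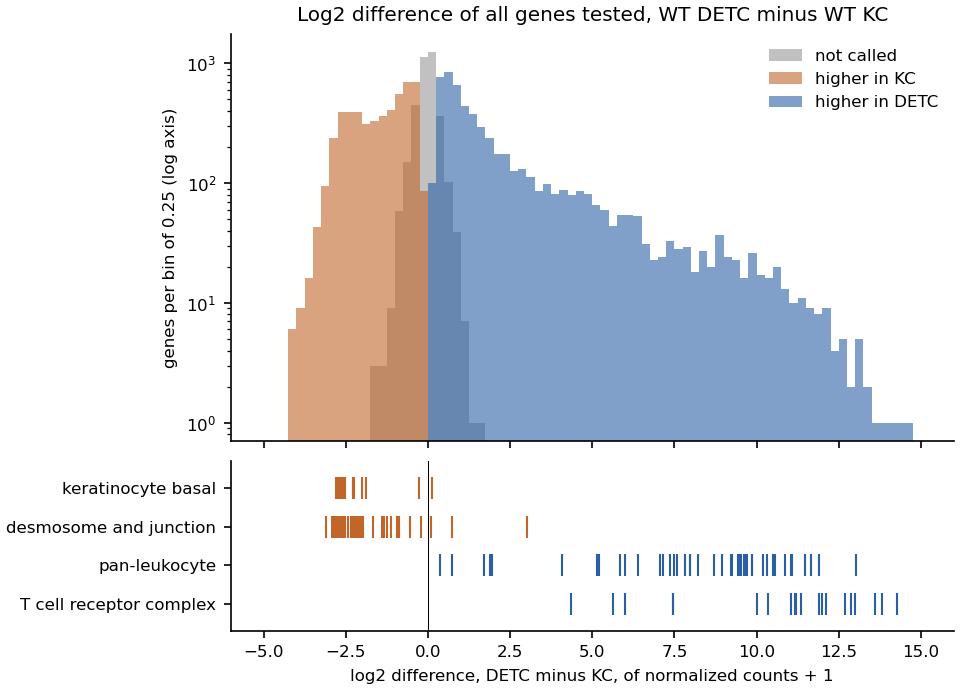
Upper panel: number of tested genes (log axis) per bin of 0.25 in the log2 difference, DETC minus KC, with overlaid bars for genes called higher in DETCs, called higher in KCs and not called. Lower panel: the members of 4 gene lists, 1 tick per gene. The DETC side runs out to 14.59 and the KC side ends at -4.19.

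The markers of each population stood on their own side. Krt5, the basal keratin on chr15:101707070-101712898, measured 114504, 121660 and 122907 normalized counts in KCs and 17736, 17238 and 20854 in DETCs. Krt14, its partner on chr11:100203162-100207548, measured 70230, 69888 and 74746 in KCs and 12894, 10581 and 13751 in DETCs. Both keratins were thus higher in every KC library, by 6.43-fold and 5.77-fold of the means, but were far from absent in the DETC libraries. Cd3e, a signalling chain of the T cell receptor on chr9:44998740-45009627, measured 1.02, 3.71 and 3.46 in KCs and 25689, 27726 and 25286 in DETCs. Trdv4, the variable segment of the DETC delta chain on chr14:54074905-54075515, had 2 reads in all 3 KC libraries together and measured 11432, 7750 and 10270 in DETCs. The T cell markers were close to absent from the KC libraries. The log2 differences were -2.69 ± 0.15 (SE, n = 3 pairs; limma adjusted p = 3.39e-07) for Krt5, -2.54 ± 0.13 (limma adjusted p = 1.83e-07) for Krt14, 12.87 ± 0.21 (limma adjusted p = 3.12e-10) for Cd3e and 12.71 ± 0.26 (limma adjusted p = 7.95e-10) for Trdv4. The 2 Trdv4 reads in KCs put the ratio of DETCs to KCs at 15604, with an exact binomial 95% interval of 4319 to 128853 that covers counting error only.

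**Figure D2:**
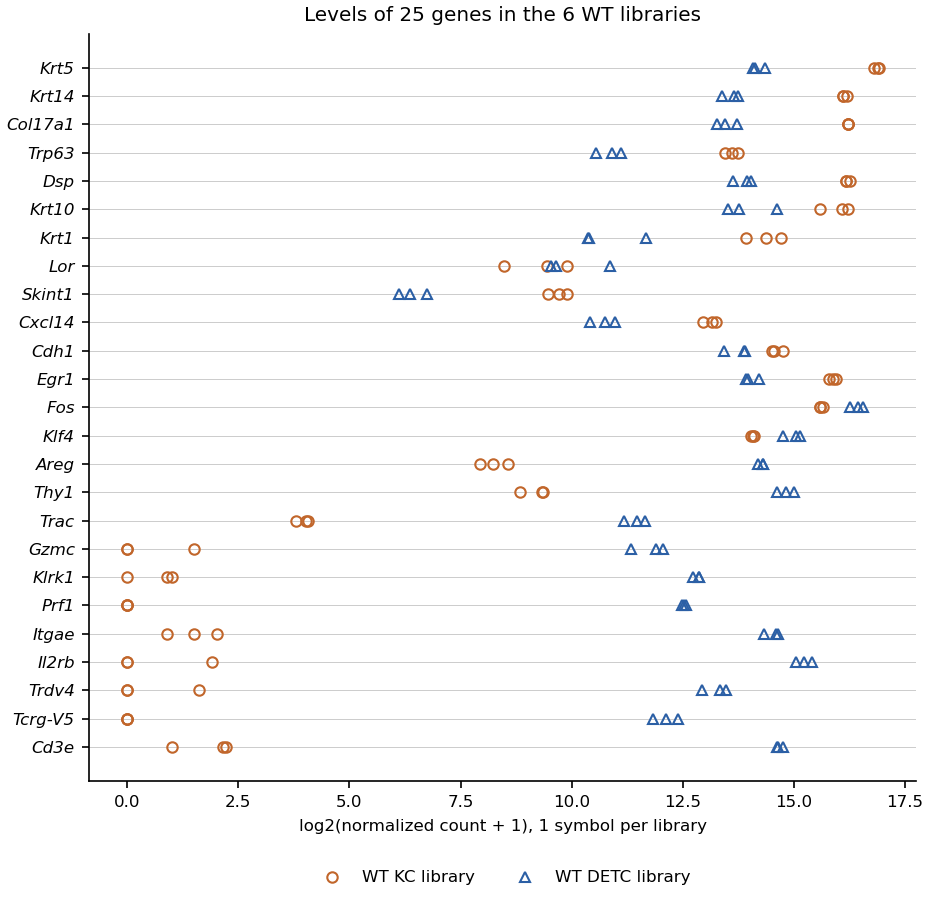
Log2(normalized count + 1) of 25 genes, with 1 circle per KC library and 1 triangle per DETC library. Keratinocyte genes such as Krt5 and Krt14 keep high levels in both populations, T cell genes such as Cd3e and Prf1 lie near 0 in KCs, and the symbols overlap for Lor.

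The 15 largest differences among called genes with a DETC mean of at least 100 and without overlap were Il2rb, Trdc, Rgs1, Cd3g, Tcrg-C1, Cd7, P2ry10, Itgal, Itgae, Icos, Ptprc, Trat1, Cd3e, Ctsw and Trdv4. Il2rb, the beta chain of the receptors for interleukin-2 and interleukin-15, measured 33888, 38512 and 43101 in DETCs and had 3 reads over the KC libraries. Rgs1, a brake on signals from chemokine receptors, measured 70723, 69033 and 72415 in DETCs and 3.07, 1.86 and 4.32 in KCs. Icos, a costimulatory receptor, measured 6753, 10091 and 8605 in DETCs and had 0 reads in KCs, which makes it at least 3012-fold higher against the floor of 3 reads per library. Ptprc encodes CD45, the marker that separated the gates, so its 31047 ± 203 (SD, n = 3) in DETCs against 2.87 ± 1.19 in KCs checks the sort and is not a result.

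All 20 tested genes of the T cell receptor complex were called higher in DETCs, against 40.6% of all genes, with a median log2 difference of 11.27, or 11.11 with members at 0 reads in KCs set to their lower bound. The summed level of the list was 197967 to 201661 in DETC libraries and 618 to 829 in KC libraries, where Thy1 at 459 to 659 made up most of it. The delta constant gene Trdc measured 39123, 30304 and 38560 in DETCs, and the gamma constant gene Tcrg-C1 measured 14601, 10740 and 12064. CD3 gamma (Cd3g, mean 27799) and the zeta chain (Cd247, mean 11124) were abundant, as was Fcer1g, a related signalling chain, at 5725, 5685 and 5627. The 2 constant genes other than Tcrg-C1 that were listed, Tcrg-C2 and Tcrg-C4, had DETC means of 2361 and 2642. Gamma constant genes resemble each other, and how reads shared by such copies were counted is not given in the sources used here.

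The variable segments of the gamma and delta loci were dominated by the pair known for DETCs. Tcrg-V5, on chr13:19192278-19192725, measured 5387, 3650 and 4461 in DETCs and had 0 reads in KCs, at least 1597-fold higher. The next gamma variable segments in DETCs were Trgv2 at a mean of 682, Tcrg-V4 at 441, Tcrg-V1 at 418 and Tcrg-V7 at 201. Tcrg-V6, a segment of dermal gammadelta T cells, had a mean of 161. In the delta locus Trdv4 had a mean of 9817, followed by Trdv5 at 283. All 9 tested gamma and all 6 tested delta variable and joining segments were called higher in DETCs. These segments had next to no reads in KCs, so the filter largely fixed this direction.

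Transcripts of alphabeta T cells were also present in the DETC libraries. Trac, the alpha constant gene, measured 2329, 3232 and 2817 in DETCs and 15.4, 15.8 and 13.0 in KCs. Trac and Trdc share a locus in the mouse genome, so transcripts across it can add to either. The co-receptor gene Cd8a measured 786, 2092 and 1716, and Cd4 measured 524, 755 and 441 in DETCs. Foxp3, the factor that defines regulatory T cells, measured 189, 124 and 239. These values varied between the DETC libraries more than Cd3e did, with Cd8a highest in DETC 2. Of 13 genes on the alphabeta T cell list, 13 were called higher in DETCs, against 40.6% of all genes. On this list 7 genes had at most 3 reads in every KC library. Its summed level was 15284 to 20592 in DETC libraries and 144 to 195 in KC libraries. Of 108 alpha variable segments 12 were tested, and of 22 beta variable segments 17 were tested, and all of these were called higher in DETCs. With next to no reads in KCs, they passed the filter through other libraries, so the direction of these calls was largely fixed. The part of such cells in the other T cell results was not tested.

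The machinery downstream of the receptor was called higher in DETCs for 40 of 44 tested genes, against 40.6% of all genes. The median was 8.15, or 7.69 with lower bounds. For the 20 listed members with at most 3 reads in every KC library, the filter largely fixed the direction. Lck, the kinase that starts the cascade, had a mean of 5918 ± 235 in DETCs and 4.37 ± 1.08 in KCs. The catalytic subunit Pik3cd had a DETC mean of 14818, and the adaptor Lat had a mean of 4185 with 1 read in KCs. Genes of the list that epithelium also uses had smaller differences, such as Plcg1 at 1247 in KCs and 9215 in DETCs. The 4 genes called higher in KCs were Dgka (-2.17), Syk (-1.58), Plcg2 (-0.71) and Nfatc1 (-0.55), which encode a diacylglycerol kinase, a kinase related to Zap70, a phospholipase and a calcium-driven factor. Syk measured 283, 222 and 291 in KCs and 84.0, 69.3 and 114 in DETCs, whereas Zap70 measured 3673, 2991 and 3230 in DETCs and had 3 reads in KCs.

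**Figure D3:**
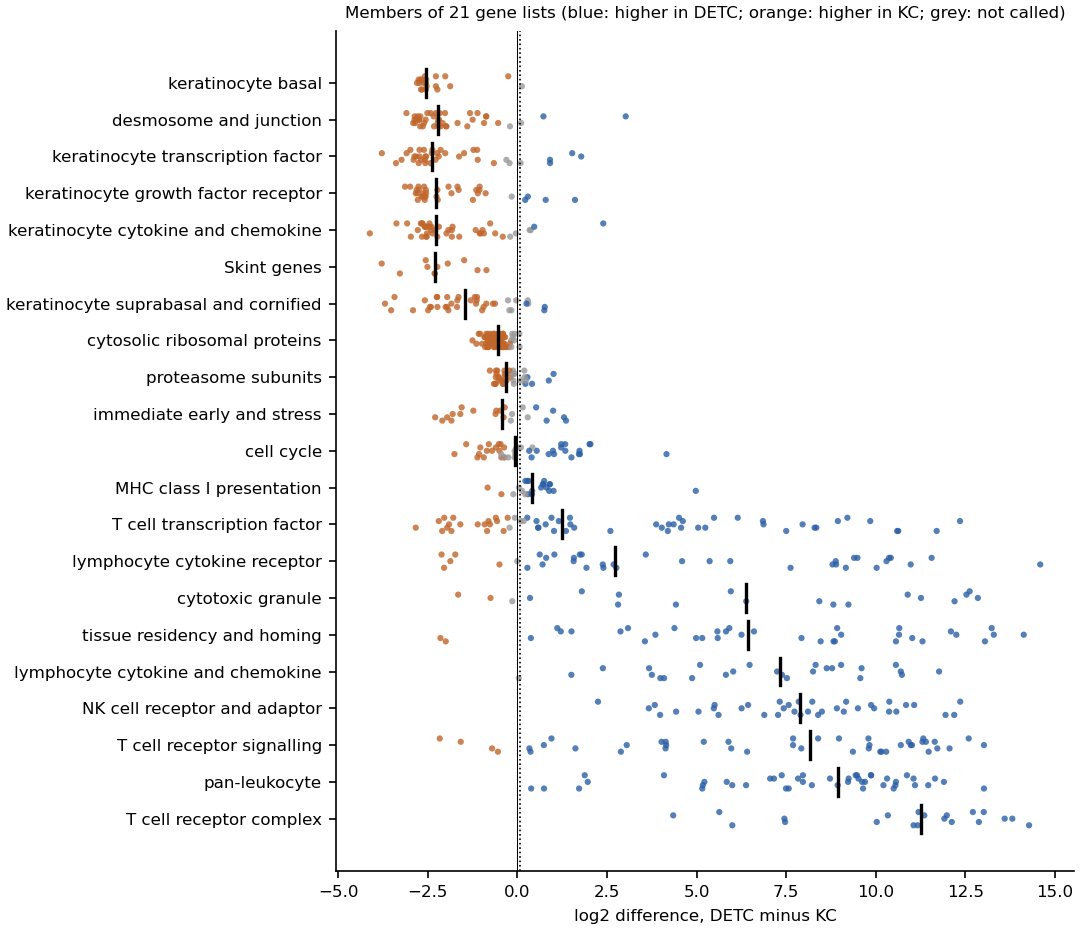
Log2 difference, DETC minus KC, of every tested member of 21 gene lists, 1 point per gene, coloured by the call. Black bars are list medians, which run from -2.56 for the keratinocyte basal list to 11.27 for the T cell receptor complex, and the dotted line is the median of all genes, 0.07.

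Of 60 tested transcription factors of T cells 38 were called higher in DETCs and 18 higher in KCs, against 40.6% and 34.8% of all genes. Their median was 1.25. Ikzf1, a lymphoid zinc finger factor, measured 12972, 14662 and 14985 in DETCs against 0, 2.78 and 4.32 in KCs. Runx3, which shapes cytotoxic and resident T cells, had means of 8094 in DETCs and 4.58 in KCs. Ets1 (4.22), Tcf7 (5.04), Id2 (4.03) and Nr4a3 (3.87) were higher in DETCs over a KC level that was above the floor. Tbx21, which encodes T-bet, measured 1542, 3368 and 2231 in DETCs, with the highest value in DETC 2. Egr1 and Gata3 went the other way. Gata3, a factor of T cells that epidermis also uses, measured 5546, 6021 and 6740 in KCs and 2891, 3624 and 3687 in DETCs, a difference of -0.85 ± 0.08 (limma adjusted p = 1.09e-05). Others called higher in KCs were Zbtb16 (-2.20), Sox4 (-2.10), Zbtb7b (-2.04), Egr2 (-1.96), Id3 (-1.91) and Egr3 (-1.59). Rora, with 7298 in KCs and 6323 in DETCs, was not called, but passed with TMM scaling at -0.27.

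Receptors shared with natural killer cells were called higher in DETCs for 37 of 37 tested genes, against 40.6% of all genes. Their median was 7.90, or 7.03 with lower bounds. At most 3 reads in every KC library were found for 37 listed members, so the filter largely fixed the direction of most of these calls. The listed members summed to 44416 to 48069 in DETC libraries and 475 to 550 in KC libraries. Klrk1, which encodes NKG2D, measured 7449, 7507 and 6823 in DETCs and had 2 reads in KCs. Hcst, the DAP10 adaptor of NKG2D, measured 545, 540 and 552 in DETCs. Klrb1b (mean 6633), Cd244a (4988), Cd96 (6660), Klrd1 (2720) and Jaml (3317) were next among the highest. Klrb1 and Klra genes belong to families of near-identical copies, so the division of reads between them is uncertain. Sema4d, which encodes CD100, had the smallest difference, 2.25, over a KC mean of 479.

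Cytotoxic granule genes were called higher in DETCs for 16 of 19 tested genes, against 40.6% of all genes, with a median of 6.38. Of 25 listed genes 14 had at most 3 reads in every KC library, and for such genes the filter largely fixed the direction. Prf1, the pore-forming perforin whose promoter is printed above, measured 5876, 6104 and 5743 in DETCs and had 0 reads in KCs, at least 2097-fold higher. Nkg7, a granule membrane protein, measured 7338, 8359 and 7771. Among granzymes Gzmc was the most abundant at 4255, 2577 and 3827, Gzmb measured 204, 443 and 441, and Gzma measured 24.0, 17.3 and 20.4. The order Gzmc, Gzmb, Gzma held in all 3 DETC libraries. Lamp2 (-1.66) and Lamp1 (-0.75), which encode membrane proteins of all lysosomes, were called higher in KCs, and Stx11 was not called, with 832 in KCs and 754 in DETCs.

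Cytokines and growth factors of lymphocytes were called higher in DETCs for 25 of 26 tested genes, against 40.6% of all genes. Their median was 7.31, or 6.45 with lower bounds. Of 32 listed genes 24 had at most 3 reads in every KC library, and for such genes the filter largely fixed the direction. Areg, which encodes the EGFR ligand amphiregulin, was the most abundant, at 18796, 20232 and 20201 in DETCs against 381, 244 and 300 in KCs, 64.0-fold of the means. Xcl1, a chemokine for dendritic cells, measured 5225, 4187 and 5854 in DETCs, and Il13 measured 1642, 2389 and 2167, each with 2 reads or fewer in KCs. Tgfb1 (mean 4839), Tnf (2727), Cd40lg (1762), Tnfsf8 (1527) and Tnfsf11 (1475) followed. Ifng measured 460, 1282 and 734 and Il17a measured 271, 501 and 453, so both were lowest in DETC 1 and highest in DETC 2. Lif had means of 64.9 in KCs and 65.6 in DETCs and was not called. Cytokine and chemokine genes known from keratinocytes formed the counterpart, with 38 of 44 tested genes called higher in KCs and 2 higher in DETCs. The shares of all genes were 34.8% and 40.6%, and the median of the list was -2.27. Cxcl14, a chemokine made constantly by epithelium, measured 9104, 7988 and 9774 in KCs and 1723, 1362 and 2009 in DETCs. The chemokine Cxcl16 (-2.59), the EGFR ligands Epgn (-2.49) and Hbegf (-2.55), the interleukin-1 antagonist Il1rn (-2.56) and the alarmin Il33 (-3.08) were also higher in KCs. Tslp, an epithelial cytokine, had the largest difference on the KC side among the genes named by rule, with 172, 281 and 284 in KCs and 13.1, 16.5 and 9.72 in DETCs, or -4.12 ± 0.25 (limma adjusted p = 5.65e-07).

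Receptors were compared in the same way. Of 38 tested cytokine receptors of lymphocytes, 32 were called higher in DETCs and 5 higher in KCs, against 40.6% and 34.8% of all genes. Their median was 2.72, and 13 of 39 listed genes had at most 3 reads in every KC library. Tnfrsf1b, the second receptor for TNF, measured 27411, 33118 and 33500 in DETCs against 8.20, 15.8 and 23.3 in KCs. The common gamma chain Il2rg (5.36), Il10ra (11.56) and the interleukin-12 receptor chain Il12rb2 (2.38) were higher in DETCs. Il6ra (-2.05), Il1r2 (-1.74) and the shared chain Il6st (-0.50) were higher in KCs. Receptors of the keratinocyte growth factor list were called higher in KCs for 30 of 35 tested genes, against 34.8% of all genes. The median of these receptors was -2.26. They include Egfr (3410, 3473 and 4192 in KCs, 525, 558 and 774 in DETCs), the ephrin receptor Epha2 (-2.55), Fgfr2 (-2.61) and Erbb3 (-2.84). Among the 4 higher in DETCs was the hedgehog receptor Ptch1, at 585, 579 and 602 in KCs and 1705, 1792 and 1883 in DETCs.

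Genes of tissue residency and homing were called higher in DETCs for 34 of 36 tested genes, with a median of 6.42. On this list 21 genes had at most 3 reads in every KC library. Itgae, the integrin chain CD103 that binds E-cadherin, measured 20638, 24677 and 25673 in DETCs and 3.07, 1.86 and 0.86 in KCs. Its partner Itgb7 had a DETC mean of 11093. Cd69, which retains lymphocytes in tissue, measured 6170, 7061 and 7249, and the chemokine receptors Cxcr6 and Ccr8 had DETC means of 4871 and 1610. S1pr1, the receptor by which T cells leave tissue, measured 210, 297 and 234 in DETCs and was called higher in DETCs. Klf2, the factor that drives it, measured 901, 823 and 717 in KCs and 434, 440 and 562 in DETCs, a difference of -0.77 ± 0.13 (limma adjusted p = 5.32e-04). All 13 tested chemokine receptors and all 18 tested checkpoint receptors were called higher in DETCs, against 40.6% of all genes. At most 3 reads in every KC library were found for 14 of 18 listed chemokine receptors and 14 of 21 listed checkpoint receptors. The filter largely fixed the direction for such genes. Havcr2 (mean 3025), Tigit (996), Lag3 (1216), Ctla4 (893) and Pdcd1 (367) represent the checkpoint receptors.

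The basal keratinocyte programme was uniform. Of 20 tested genes 19 were called higher in KCs, against 34.8% of all genes, and the median was -2.56. Col17a1, a hemidesmosome collagen, measured 75711, 75881 and 76505 in KCs and 11210, 9809 and 13446 in DETCs. Krt15 (-2.63), Sfn (-2.70), the plakin Dst (-2.68), Itga6 (-2.55) and Col7a1 (-2.80) had differences of like size. Plec, a cytolinker used by many cells, had a difference of -0.26, a call that was lost without pair 2 and without pair 3. Itgb1, an integrin chain of both lineages, measured 6211, 6323 and 7565 in KCs and 6831, 7493 and 7495 in DETCs and was not called, and with quantile normalization its difference turned from 0.12 to -0.18. All 9 tested laminins were called higher in KCs, with a median of -2.66.

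Junction genes were called higher in KCs for 38 of 42 tested genes, against 34.8% of all genes, with a median of -2.21. Dsp, which encodes desmoplakin, measured 78231, 74119 and 73486 in KCs and 12656, 16800 and 15825 in DETCs. Perp (-2.75), Dsc3 (-2.86), Cldn1 (-2.87) and Cldn4 (-3.10) were higher in KCs. Cdh1, which encodes E-cadherin, differed less. It measured 23813, 23264 and 27585 in KCs and 10917, 15036 and 15228 in DETCs, a difference of -0.87 ± 0.13 (limma adjusted p = 1.94e-04). Tjp1, the scaffold ZO-1, was called higher in DETCs, at 3706, 3336 and 3729 in KCs and 4987, 6547 and 6372 in DETCs.

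Skint genes, a family that includes the selecting element for DETCs in the thymus, were called higher in KCs for 11 of 11 genes, with a median of -2.31. Skint7 measured 954, 1137 and 978 in KCs and 80.8, 73.4 and 65.2 in DETCs. Skint1 measured 950, 712 and 833 in KCs and 68.7, 106 and 81.7 in DETCs. The smallest differences were those of Skint5 (-0.87) and Skint10 (-1.12). These genes are close copies, and the division of reads between them is uncertain.

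Genes of the suprabasal and cornified layers were less uniform than those of the basal layer. Of 38 tested genes 29 were called higher in KCs, 3 higher in DETCs and 6 were not called. Among all genes 34.8% were called higher in KCs and 40.6% higher in DETCs. The list had a median of -1.48 and a range of -3.70 to 0.76. Krt10, the keratin of the first suprabasal layers, measured 76502, 69151 and 49448 in KCs and 11672, 25151 and 13800 in DETCs. Its partner Krt1 measured 26748, 21292 and 15514 in KCs and 1337, 3260 and 1326 in DETCs, so both keratins were lowest in KC 3 and highest in DETC 2 within their populations. Krt10 was 3.85-fold higher in KCs by the means (limma adjusted p = 3.12e-05), and Krt1 differed by -3.53 ± 0.24 (limma adjusted p = 1.10e-06). Sprr1a, a cornified envelope precursor, had means of 7104 in KCs and 737 in DETCs, and all 5 tested members of its family were called higher in KCs. At the late end the populations overlapped. Lor, which encodes loricrin, measured 692, 946 and 357 in KCs and 797, 1872 and 744 in DETCs, a difference of 0.75 ± 0.15 (limma adjusted p = 1.66e-03). Flg, which encodes filaggrin, measured 99.4, 115 and 38.9 in KCs and 110, 184 and 109 in DETCs (0.76 ± 0.24, limma adjusted p = 0.0182). Without the block neither Lor (limma adjusted p = 0.116) nor Flg (limma adjusted p = 0.0984) was called, and without pair 3 Flg was not called (limma adjusted p = 0.111). Flg2 (0.30), Hrnr (0.29), Cdsn (-0.17) and Cnfn (-0.04) were not called. Of 7 tested late cornified envelope genes 1 was called higher in DETCs, Lce1m at 0.70, which lost its call without the block, and 6 were not called. With quantile normalization the median of that list turned from 0.51 to -0.52.

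The level of each keratinocyte gene in a DETC library was also expressed as a percent of its level in the KC library with the same number, which gives a ratio without a test. The median over the basal list was 17.5, 14.9 and 18.9% in the 3 pairs, and over the junction list between 18.4 and 23.2%. For keratinocyte cytokines it was 21.1, 22.1 and 21.8%. The suprabasal list had medians of 26.4, 51.2 and 40.2%, and the small proline-rich family 7.11, 14.2 and 9.52%. The late cornified envelope genes had medians of 79.9, 108 and 394%. In the opposite sense the median KC level of the T cell receptor complex list was 0.01% of the DETC level in each pair. Keratinocyte transcripts were therefore present in all 3 DETC libraries, with summed basal genes at 90713 to 110916 normalized counts against 507655 to 525242 in KC libraries. The part of keratinocyte RNA in the DETC libraries in the size of each difference was not tested.

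**Figure D4:**
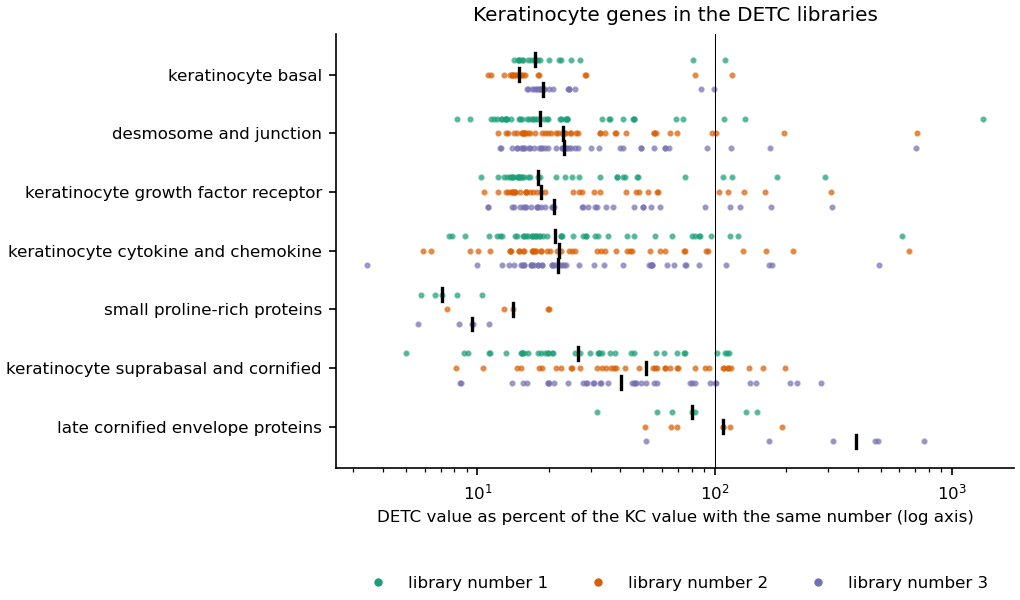
DETC value as a percent (log axis) of the KC value with the same library number, for tested members of 7 keratinocyte lists with more than 3 reads in the KC library, 1 point per gene and pair. Black bars are the medians of each pair, from 7.11% for small proline-rich proteins in pair 1 to 394% for late cornified envelope genes in pair 3.

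Keratinocyte transcription factors were called higher in KCs for 31 of 38 tested genes, against 34.8% of all genes, with a median of -2.38. Trp63, the master factor of stratified epithelium, measured 12536, 11223 and 13786 in KCs and 1915, 1491 and 2194 in DETCs. Ovol1 (-3.24), Fosl1 (-2.69), Klf5 (-2.74), Grhl3 (-3.39) and Zfp750 (-3.79), factors of proliferation or terminal differentiation, were higher in KCs. The 4 genes called higher in DETCs were Zfp36l2 (1.78), Cebpb (1.53), Klf4 (0.91) and Hopx (0.91). Klf4, a factor of epidermal differentiation that lymphocytes also express, measured 17447, 17305 and 16764 in KCs and 27611, 33647 and 35965 in DETCs.

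Genes for ligands and receptors across the 2 populations were compared in 45 pairs with known binding, some of which share a partner. The pairs were chosen with earlier results of these data known, so their counts are a description only. Among all genes, 40.6% were called higher in DETCs and 34.8% higher in KCs. In 19 pairs the ligand was called higher in KCs and the receptor higher in DETCs, and in 8 the ligand was higher in DETCs and the receptor higher in KCs. Both partners were higher in DETCs in 9 pairs and higher in KCs in 2. Cxadr, the ligand of JAML, measured 9465, 10198 and 10656 in KCs and 2103, 1965 and 2422 in DETCs, while Jaml measured 3074, 3311 and 3567 in DETCs and had 3 reads in KCs. H60c, a ligand of NKG2D, measured 898, 854 and 800 in KCs and 132, 113 and 119 in DETCs. Another NKG2D ligand, Ulbp1, was on the other side, at 47.1, 60.3 and 45.8 in KCs and 657, 871 and 826 in DETCs. Cxcl16 and Cxcr6, Ccl27a and Ccr10, Il33 and Il1rl1, Kitl and Kit, and Nectin1 and Cd96 also put the ligand in KCs and the receptor in DETCs. Ccr10 was low, at 38.2, 45.4 and 34.0 in DETCs.

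Survival cytokines for T cells were low in both populations. Il15 measured 28.7, 27.8 and 29.4 in KCs and 13.1, 14.9 and 15.6 in DETCs and was called higher in KCs, but not by DESeq2 (adjusted p = 0.0763). Il7 had means of 24.3 in KCs and 7.50 in DETCs, whereas their receptor chains Il2rb and Il7r had DETC means of 38500 and 1731. In the direction from DETCs to KCs stood Areg and Egfr, Il13 and Il13ra1, Osm and Osmr, Ltb and Ltbr, Tnf and Tnfrsf1a, Tnfsf11 and Tnfrsf11a, Il22 and Il22ra1, and Sema4d (2.25) and Plxnb2 (-1.67). Il13ra1 had means of 5989 in KCs and 851 in DETCs, and Osmr 2019 and 291. Il22 was low, at a DETC mean of 16.2, and Il22ra1 had means of 92.2 in KCs and 42.6 in DETCs. Among pairs with both partners higher in DETCs were Cd274, which encodes PD-L1, at 240, 266 and 271 in KCs and 935, 1082 and 1229 in DETCs, and Pdcd1. Jag1 with Notch1 and Jag2 with Notch2 were the 2 pairs with both partners higher in KCs.

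Pairs of related genes were compared next. The way they were chosen makes opposite sides likely, so their counts say nothing about gene families in general. Of 44 pairs of related genes, chosen with 1 epithelial and 1 leukocyte member in mind, 27 had the first member called higher in KCs and the second higher in DETCs, 9 had both higher in DETCs and 3 both higher in KCs. The actin bundlers Pls3 and Lcp1 are an example. Pls3 measured 3368, 3205 and 4048 in KCs and 555, 642 and 786 in DETCs, whereas Lcp1 measured 10.2, 9.28 and 19.9 in KCs and 15614, 17715 and 17952 in DETCs. The same crossing was seen for the actin regulators Cttn (-2.64) and Hcls1 (10.50), the exchange factors Dock1 (-2.49) and Dock2 (8.72), and the integrin activators Fermt1 (-2.76) and Fermt3 (6.38). Signalling and transcription had Yes1 (-2.25) and Lck (10.12), and Ets2 (-2.14) and Ets1 (4.22). Rac1 was not called, at 4301, 4223 and 4310 in KCs and 3513, 4051 and 3969 in DETCs (-0.16 ± 0.08, limma adjusted p = 0.105, or 0.0386 with TMM scaling), while Rac2, its haematopoietic relative, measured 3504, 4323 and 4225 in DETCs and had 2 reads in KCs. In the broader list of leukocyte cytoskeleton and membrane genes 45 of 45 tested genes were called higher in DETCs, against 40.6% of all genes. The median was 8.93, or 8.72 with lower bounds. For the 27 listed genes with at most 3 reads in every KC library, the filter largely fixed the direction.

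**Figure D5:**
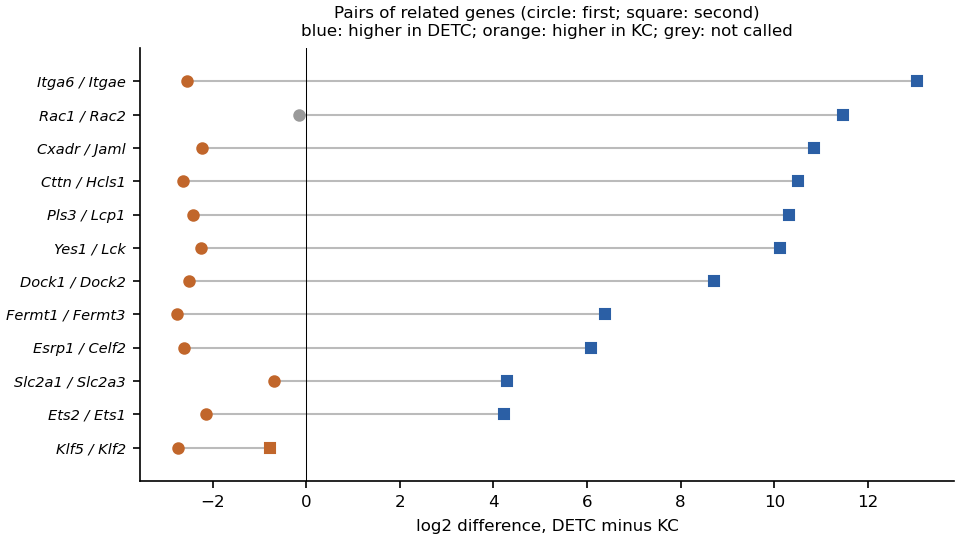
Log2 difference, DETC minus KC, of both members of the 12 pairs of related genes whose members are both named in the text, with the first member as a circle and the second as a square. The squares lie on the DETC side except Klf2, paired with Klf5, and the circle of Rac1, not called, lies near 0.

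The most abundant transcripts per kilobase of exon were partly shared. In KCs these were Krt5, mt-Co1, Eef1a1, Sfn, Krt14, Serpinb2, Krt10, Krt15, mt-Cytb and Actb, and in DETCs mt-Co1, Fos, Eef1a1, Junb, mt-Cytb, Rgs2, Gem, B2m, Cd7 and mt-Nd1. Krt5 had 54479 normalized counts per kilobase in KCs and 8470 in DETCs, and Cd7, an immunoglobulin-family protein of lymphocytes, had 22146 in DETCs and 1.45 in KCs. Rgs2, a regulator of G protein signals, had 29712 per kilobase in DETCs and 623 in KCs.

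Immediate early genes were high in both populations, and 13 of 22 tested were called higher in KCs and 5 higher in DETCs. The shares of all genes were 34.8% and 40.6%, and the median of the list was -0.43. Fos measured 49177, 51537 and 48846 in KCs and 78272, 88964 and 96317 in DETCs, and the Fos call was lost without pair 3 (limma adjusted p = 0.111). Junb had means of 35450 in KCs and 70780 in DETCs. Egr1 measured 56801, 60444 and 62723 in KCs and 15551, 15891 and 18893 in DETCs. Jun (-1.81) and Atf3 (-2.10) were likewise higher in KCs, and Fosb, with 60789 in KCs and 74255 in DETCs, was not called. The part of tissue digestion and sorting in these levels was not tested.

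Genes of general cell functions had smaller differences than the lineage lists. Cytosolic ribosomal proteins were called higher in KCs for 70 of 79 tested genes and higher in DETCs for 0, with a median of -0.54, and Rplp0 measured 26391, 26735 and 26162 in KCs and 10569, 13216 and 13965 in DETCs. Proteasome subunits were higher in KCs for 22 of 37 tested genes and higher in DETCs for 5, with a median of -0.31, and with quantile normalization 28 and 2. Genes of MHC class I presentation were higher in DETCs for 16 of 22 tested genes and higher in KCs for 2, with a median of 0.41, and with quantile normalization 10 and 4, with a median of 0.14. H2-D1 measured 14654, 14996 and 14408 in KCs and 25053, 29198 and 27301 in DETCs. Cell cycle genes divided into 17 higher in DETCs and 16 higher in KCs of 43 tested, near the shares of all genes, 40.6% and 34.8%. Their median was -0.06, and with quantile normalization they divided into 15 and 22. Mki67, a marker of dividing cells, measured 2125, 1900 and 2534 in KCs and 1467, 1723 and 1588 in DETCs. Rrm1, a subunit of the enzyme that makes deoxyribonucleotides, was the member farthest on the DETC side, at 832, 837 and 889 in KCs and 12173, 18306 and 15869 in DETCs.

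Markers of other epidermal and dermal cells were low, with exceptions. Among the exceptions were hair follicle genes, which summed to 73289 to 82667 in KC libraries and 14666 to 19318 in DETC libraries. Of 23 tested, 20 were called higher in KCs and 2 higher in DETCs. Sebaceous gland genes summed to 19590 to 20777 in KC libraries and 11412 to 14929 in DETC libraries. Of 13 tested, 3 were called higher in KCs and 5 higher in DETCs. Cd207, which encodes langerin, measured 6.15, 26.9 and 15.6 in KCs and 21.8, 16.5 and 46.7 in DETCs and was not called, and H2-Ab1, an MHC-II chain, had means of 30.3 and 63.2. Of 21 Langerhans cell genes 15 were tested, 7 called higher in DETCs and 4 higher in KCs, against 40.6% and 34.8% of all genes. The list summed to 9226 to 10259 in KCs, where Epcam took a mean of 6119, and to 3747 to 4650 in DETCs. Kit, although c-kit+ cells were gated out, measured 530, 343 and 573 in DETCs and 5.12, 11.1 and 10.4 in KCs. The mast cell genes Cpa3, Mcpt4 and Tpsb2 had 0 reads in all 6 libraries, and of 13 mast cell genes 4 were tested. Of 13 melanocyte genes 3 were tested, with Dct at means of 41.7 in KCs and 9.91 in DETCs. Of 16 macrophage and neutrophil genes 2 were tested, with Cd68 at means of 39.1 in KCs and 261 in DETCs and Lyz2 at 0.918 and 14.2. The B cell gene Ms4a1 had 0 reads in all 6 libraries, while Ighm measured 2797, 2805 and 2861 in DETCs. Of 12 endothelial genes 4 were tested, 1 called higher in DETCs and 3 higher in KCs. Of 13 fibroblast genes 8 were tested, and Vim, which lymphocytes also express, had means of 61.4 in KCs and 39151 in DETCs, while Col1a1 had a difference of -0.77 and was not called. Of 17 tested genes of dermal gammadelta T cells, 14 were called higher in DETCs, against 40.6% of all genes. In KCs 2 were called higher, among them Zbtb16 (-2.20). Cd163l1 measured 3289, 3590 and 3673 in DETCs, and Il23r had a DETC mean of 196. At most 3 reads in every KC library were found for 11 members, so the filter largely fixed the direction of their calls. The part of these cells in the differences above was not tested.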

How the data were processed

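The deposited table holds 1 value per gene and library, which the authors made by trimming with cutadapt, aligning to GRCm38 with hisat2, counting per gene with featureCounts and dividing the counts by library size factors with DESeq2. Strand setting and tool versions are not given in the sources used here. These deposited values are a signal, the counts of the authors after normalization, and 100% of them were whole multiples of 1 read within 0.01 reads, so reads were recovered for the depths and for the count tests. No column of per-sample values lacked a sample.

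Genes over 1 CPM in at least 2 of all 11 libraries were tested (14419 of 52550). The values were taken as log2(normalized count + 1) and fitted with limma 3.58.1 (empirical Bayes with a trend, R 4.3.3) on the 6 WT libraries with the label number as a block, and Benjamini-Hochberg adjusted. A gene at 0 reads in 1 population was compared with 3 reads per library, and intervals cover counting error only. In a test on simulated data over 14419 genes, limma recovered 87 of 100 genes changed 2-fold and 99 of 100 changed 4-fold, with 6 false calls. DESeq2 recovered 64 and 89, with 2 false calls. Only 200 genes were changed there, with an effect shared within each pair built in, against 10873 genes called in the data. These counts are therefore not error rates of the comparison. Gene models and exon lengths came from GENCODE M21, and promoters from RefSeq.

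Named genes were the markers, the 15 largest differences in each direction (mean of at least 100, called, without overlap, no predicted gene), the 10 protein-coding genes with the highest level per kilobase in each population, both members of the listed pairs, and the most abundant or opposed members of 55 gene lists. On the KC side the 15 were Tslp, Ddr2, Krt79, Skint7, Zfp750, Ly6c1, Mt4, Npbwr1, Krt1, Sectm1a, Cst6, Nat8l, Rspo3, Kif26b and Tgm7. The members, lists and pairs were chosen with earlier results of these data known. Libraries of huLangerin-DTA mice entered the expression filter and 1 alternative only. The alternatives were pseudocounts of 0.5 and 8, other filters, TMM and quantile scaling, no block, no trend, each label number left out, all 11 libraries in 1 fit, edgeR 4.0.16 and DESeq2 1.42.0. Some results are not reported here.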

Additional observations from a re-analysis of the deposited data

How the results depend on the processing

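Over 15 alternatives, the counts of genes higher in DETCs and in KCs stayed within 1.5 times of 5858 and 5015, from 4649 to 6878 and from 4517 to 6626. With quantile normalization 41.2% of the calls were higher in DETCs, against 53.9%. Leaving out 1 label number at a time gave 5410 to 5820 genes higher in DETCs and 4517 to 4945 higher in KCs. Of 251 named genes in 15 settings, 3707 values kept direction and side of the threshold, 23 lost and 22 gained a call, and 11 turned direction. With quantile normalization Hrnr turned to -0.0083, Itgb1 to -0.18 and Lif to -0.38, and Lif was at -0.017 with TMM scaling and -0.029 with edgeR. Leaving out a number, Cnfn ranged from -0.29 to 0.20, Flg2 from -0.12 to 0.66, Lif from -0.23 to 0.30, mt-Cytb from -0.028 to 0.23 and mt-Nd1 from -0.29 to 0.060. The cause was not tested. At 3 reads per library, levels under about 3 normalized counts cannot be told from 0.

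Without the replicate block 5906 genes were higher in DETCs and 5059 in KCs. Over 14041 genes, the deviations of libraries with the same number correlated at r = -0.05, 0.08 and 0.13, and those with different numbers between -0.14 and 0.06, and each library correlated best with its own number except number 1. The labels share only a number, so the pairing rests on the names of the libraries. Lor, Flg and Lce1m were the named genes whose call was lost without the block.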

Other observations

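Values of metabolic and survival genes that the comparisons above do not cover are as follows. Fth1, the ferritin heavy chain, measured 7411, 7549 and 7623 normalized counts in KCs and 50432, 66247 and 62980 in DETCs, and its partner Ftl1 was higher in DETCs by 1.81 on the log2 scale. The metallothioneins Mt1 (-2.49) and Mt2 (-2.56) were higher in KCs. Of 29 tested genes of cholesterol and fatty acid synthesis 13 were called higher in DETCs and 10 higher in KCs, with a median of 0.06 that turned to -0.23 with quantile normalization, against 40.6% and 34.8% of all genes. Elovl5, which lengthens polyunsaturated fatty acids, measured 289, 280 and 270 in KCs and 7779, 8567 and 8413 in DETCs, and Scd2, a desaturase, had means of 264 and 4435. Of 20 tested glycolysis genes 8 were called higher in DETCs and 7 higher in KCs, with a median of 0.00024, or -0.23 with quantile normalization, again near the shares of all genes. Hk2 (2.46) and the glucose transporter Slc2a3 (4.29) were higher in DETCs, while Slc2a1 was higher in KCs (-0.69).

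Of 23 tested regulators of apoptosis 16 were called higher in DETCs and 4 higher in KCs, against 40.6% and 34.8% of all genes. Their median was 0.94. Bcl2, which opposes cell death, measured 403, 375 and 397 in KCs and 3880, 2712 and 3038 in DETCs. Bcl2a1d had means of 5.23 and 592, and it belongs to a group of near-identical genes. Among splicing regulators the epithelial factors Esrp1 (-2.60) and Esrp2 (-2.83) were higher in KCs, and Celf2 measured 48.2, 57.5 and 49.3 in KCs and 3695, 3397 and 3642 in DETCs. Krt83 was the only 1 of 19 tested keratins called higher in DETCs, at 6.15, 0 and 0.86 in KCs and 108, 94.9 and 96.3 in DETCs. Klk8, a kallikrein peptidase, measured 149, 193 and 118 in KCs and 755, 899 and 806 in DETCs, while Klk10 (-3.08) and Klk11 (-2.93) were higher in KCs. All 7 tested GIMAP GTPases were called higher in DETCs, with a median of 7.16, or 5.66 with lower bounds. Of 8 listed GIMAP genes 7 had at most 3 reads in every KC library, so the filter largely fixed this direction.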
